A study of Mus musculus with 4 samples.

Results

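F-box genes were examined in late 2-cell (2C) mouse embryos, as the genes whose symbol begins with Fbxo, Fbxl or Fbxw followed by a number. There were 78 such genes among the 26022 genes of the count table, namely 36 *Fbxo*, 19 *Fbxl* and 23 *Fbxw* genes. Of the *Fbxw* genes, the 15 from *Fbxw13* to *Fbxw28* were set beside the 63 other F-box genes. One of the 78, *Fbxl12os*, is a long non-coding RNA that carries the name of its neighbour and encodes no F-box protein. The embryos were of ICR mice, an outbred strain, and were cultured from the zygote stage for 16 h with 200 μM Mdivi-1 or without it. Mdivi-1 is a small-molecule inhibitor of DRP1, the GTPase that divides mitochondria. Each group had 2 libraries, each made from the amplified RNA of a small pool of embryos with Smart-Seq2, a method for very few cells that reads whole polyadenylated transcripts and does not tell the strand. No label ties a library to a litter or a culture of its own. The p-values therefore measure only how far these libraries were apart, which may be technical.

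F-box proteins are the substrate receptors of the SCF ubiquitin ligases. In these complexes the cullin CUL1 holds the RING protein RBX1 at one end and the adaptor SKP1 at the other, and the F-box motif docks on SKP1 while the rest of the receptor binds the protein to be ubiquitinated. The FBXW receptors bind through WD40 repeats, the FBXL receptors through leucine-rich repeats, and the FBXO receptors through other domains. The mouse genome holds a tandem array of *Fbxw* genes, several of which are known as oocyte genes, so that the 2C embryo can carry their RNA from the egg while the egg's RNA is being degraded and the embryo's own genes are being switched on.

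The 15 genes *Fbxw13* to *Fbxw28* fell into an array and a single gene apart from it. *Fbxw13*, *Fbxw14*, *Fbxw15*, *Fbxw16*, *Fbxw18* to *Fbxw22* and *Fbxw24* to *Fbxw28* lay together on chromosome 9, in 651 kb (chr9:109139447-109790670 of GRCm38, GENCODE M21 annotation), and all 14 were on the minus strand. No other gene of the count table lay within these limits. *Fbxw17* was on the plus strand of chromosome 13. Over their longest coding transcripts, the pairs of array genes were 55% to 88.9% identical (median 72.6%, 91 pairs), and *Fbxw17* was 46.9% to 53% identical to them.

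The array genes also had like sequence before their start. RefSeq promoters (GRCm38.p6) were found for 58 of the 78 F-box genes and for 11 of the 14 array genes. In the 250 bases before the start, the 55 pairs of array genes were 60.7% to 96.4% identical (median 83.9%), and *Fbxw17* was 43.9% to 51.1% identical to them. The last 150 bases before the start are shown for the array gene of the highest level (*Fbxw24*), for the gene with the largest log2 difference between the groups (*Fbxw25*), for a gene that shares the array's most alike promoter pair (*Fbxw14*), for the gene with the lowest log2 difference among those with a promoter (*Fbxw20*), and for *Fbxw17*, which lies outside the array. Capitals mark runs of at least 8 bases that all 11 array promoters hold in the 250 bases before the start. In TCTACACAGCTG a pair of such runs, TCTACACAG and CACAGCTG, overlap.
*Fbxw24*, chr9:109626060-109626209, minus strand: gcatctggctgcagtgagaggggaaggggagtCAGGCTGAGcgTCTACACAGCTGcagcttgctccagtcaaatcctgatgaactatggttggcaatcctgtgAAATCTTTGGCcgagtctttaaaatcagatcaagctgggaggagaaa
*Fbxw25*, chr9:109664653-109664802, minus strand: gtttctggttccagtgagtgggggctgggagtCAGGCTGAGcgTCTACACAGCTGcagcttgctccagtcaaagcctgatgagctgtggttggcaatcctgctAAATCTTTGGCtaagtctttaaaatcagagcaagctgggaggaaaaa
*Fbxw14*, chr9:109287677-109287826, minus strand: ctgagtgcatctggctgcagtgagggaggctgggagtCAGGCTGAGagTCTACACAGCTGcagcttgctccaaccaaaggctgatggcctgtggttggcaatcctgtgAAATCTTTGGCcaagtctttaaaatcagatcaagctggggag
*Fbxw20*, chr9:109234755-109234904, minus strand: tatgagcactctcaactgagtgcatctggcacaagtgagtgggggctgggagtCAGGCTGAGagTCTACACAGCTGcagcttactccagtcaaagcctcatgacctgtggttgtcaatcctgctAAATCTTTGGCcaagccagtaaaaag
*Fbxw17*, chr13:50417714-50417863, plus strand: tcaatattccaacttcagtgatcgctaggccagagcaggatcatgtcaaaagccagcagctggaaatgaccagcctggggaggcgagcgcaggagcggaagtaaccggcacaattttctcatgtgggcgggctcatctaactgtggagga

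The longest common run is AAATCTTTGGC. Its presence in 11 of 11 array promoters was fixed by the choice of runs that all of them hold. From 250 bases before to 50 bases after the start, it was present on either strand in 16 of the 27025 genes with a RefSeq promoter (0.0592%). These 16 include the 11 array genes. CAGGCTGAG was present in 1.24% and TCTACACAG in 0.437% of all promoters, again with the array genes among them. Shares of all promoters here count genes, each once if any of its promoters holds the letters. Letters that egg and embryo factors can bind were also searched on both strands. TAATTG and TAATTA, letters of the homeobox type that NOBOX, an oocyte factor, can bind, were found in 0 of 11 array promoters, against 9.22% and 6.12% of all promoters. TAATCC, letters of the OTX type, was found in 1 of 11, the promoter of *Fbxw21*, against 8.14% of all. CANNTG, the E-box, was found in 11 of 11 array promoters and in 75% of all promoters, and it overlaps the run CACAGCTG. These matches are descriptions of letters, and 11 copies of one array are not 11 independent sequences.

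The libraries were of like depth, with total counts of 17712075 and 18500928 in Mdivi-1 embryos and 20077326 and 18279626 in controls. F-box genes took 0.571% and 0.572% of the counts of the Mdivi-1 libraries and 0.569% and 0.501% of those of the controls. A count of at least 1 was present for 77 of the 78 genes, all but *Fbxo24*, and 69 passed the filter on low counts and were tested. The 9 that were not tested were *Fbxl8*, *Fbxo2*, *Fbxo4*, *Fbxo10*, *Fbxo24*, *Fbxo25*, *Fbxo39*, *Fbxo41* and *Fbxw10*, with at most 51 counts in a library. No F-box gene passed an adjusted p of 0.05 in edgeR's quasi-likelihood test, and neither did any of the 14259 genes tested (0%). Their smallest adjusted p was 0.178, against 0.109 over all genes. This rests on the filter, since without it the same test called 819 genes of 18702 (4.38%, with 1.95% lower), of which 2 were F-box genes, *Fbxo15* (adjusted p = 0.0429) and *Fbxo45* (adjusted p = 0.0382), both lower. It rests on single libraries too, since edgeR's quasi-likelihood test called 803 genes (5.16%), with *Fbxo15* and *Fbxl7* among them, without control replicate 1, and 380 without control replicate 2, with 0 F-box genes. At an unadjusted p under 0.05 there were 8 F-box genes of 69 (11.6%), 4 higher and 4 lower in Mdivi-1 embryos, against 2268 of all genes (15.9%, with 8.27% higher and 7.64% lower). With scaling by library totals the F-box genes were 5 higher and 2 lower, and all genes 1287 higher and 769 lower. Their number was 2 without Mdivi-1 replicate 1 and 3 without Mdivi-1 replicate 2. DESeq2 called 2 F-box genes, both lower, against 867 of all genes (6.08%, with 3.28% higher and 2.81% lower).

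The array genes were among the most abundant F-box RNAs of these embryos, and their levels differed at most 1.58-fold between the groups. Levels are given as CPM, the count relative to the library's total after scaling by TMM factors, and between genes as CPM per kilobase of exon (RPKM). The 14 array genes made up 41.7% to 49.9% of the CPM of all F-box genes in the 4 libraries. Their median level was 72.8 RPKM in Mdivi-1 embryos and 56.6 RPKM in controls, and that of the 63 other F-box genes was 2.36 RPKM in Mdivi-1 embryos and 1.75 RPKM in controls. Only 2 other F-box genes in Mdivi-1 embryos and 3 in controls had a level above the array's median, *Fbxo15* and *Fbxo11* in both groups and *Fbxo33* in controls. Since these are pools of whole embryos, fewer cells that hold an RNA and less of it in each cell cannot be told apart.

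Within the array the levels differed 40.0-fold in Mdivi-1 embryos and 45.3-fold in controls from the highest gene to the lowest. *Fbxw24* was the highest in every library, with 783 and 790.2 CPM in Mdivi-1 embryos and 679.8 and 857 CPM in controls. The 2 groups overlapped, with the Mdivi-1 libraries between the controls, and the log2 fold change was 0.03 ± 0.31 (SE, n = 2 libraries a group). *Fbxw28* and *Fbxw14* came next per kilobase, in this order, in all 4 libraries, and *Fbxw13* was last in all 4. *Fbxw28* had 342 and 311 CPM in Mdivi-1 embryos and 313 and 308 CPM in controls. *Fbxw14* had 361 and 303 CPM in Mdivi-1 embryos and 268 and 305 CPM in controls. The groups overlapped for both genes. *Fbxw13* had 20.0 and 20.0 CPM in Mdivi-1 embryos and 15.2 and 19.2 CPM in controls, so that the Mdivi-1 libraries were above the controls by less than the controls were apart.

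**Figure D1:**
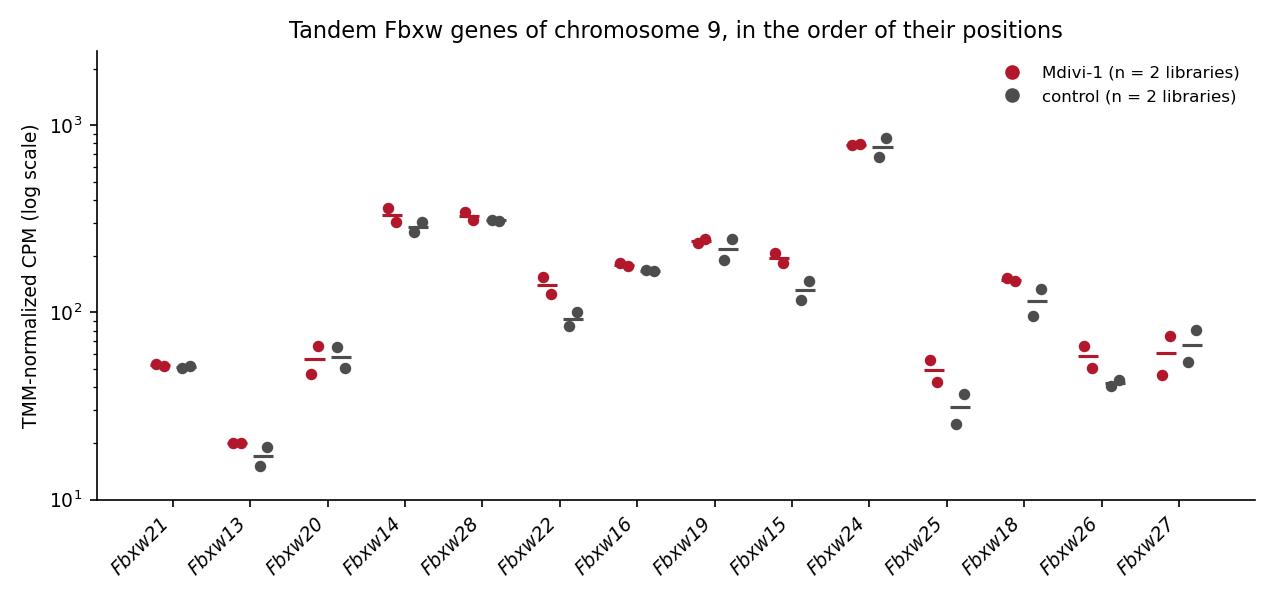
Level of the 14 array genes in each library, as TMM-normalized CPM on a log axis, in the order of their positions on chromosome 9 from the lowest coordinate. Points are libraries and lines are group means, with Mdivi-1 (red) left of control (grey). *Fbxw24*, at 783 and 790.2 CPM in Mdivi-1 embryos and 679.8 and 857 CPM in controls, stands above the rest. Both Mdivi-1 libraries lie above both controls in 7 of the 14 genes, and the groups overlap in the other 7.

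Neighbouring genes of like sequence were not always alike in level. *Fbxw24* and *Fbxw25*, which stand next to each other, had the highest transcript identity of any pair (88.9%), with 90.8% over the 250 bases before the start. The level of *Fbxw24* per kilobase was 14.1 and 18.6 times that of *Fbxw25* in the Mdivi-1 libraries and 26.9 and 23.3 times in the controls. *Fbxw14* and *Fbxw28*, also neighbours, had the most alike promoters (96.4%) and levels of 157 and 167 RPKM in Mdivi-1 embryos and 135 and 159 RPKM in controls. For these, 71.6% and 69.4% of the 150-base windows of their transcripts occur in no other gene, so that reads from the rest could be lost in counts of uniquely mapped reads. For the other 13 genes of *Fbxw13* to *Fbxw28* all windows were unique.

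**Figure D2:**
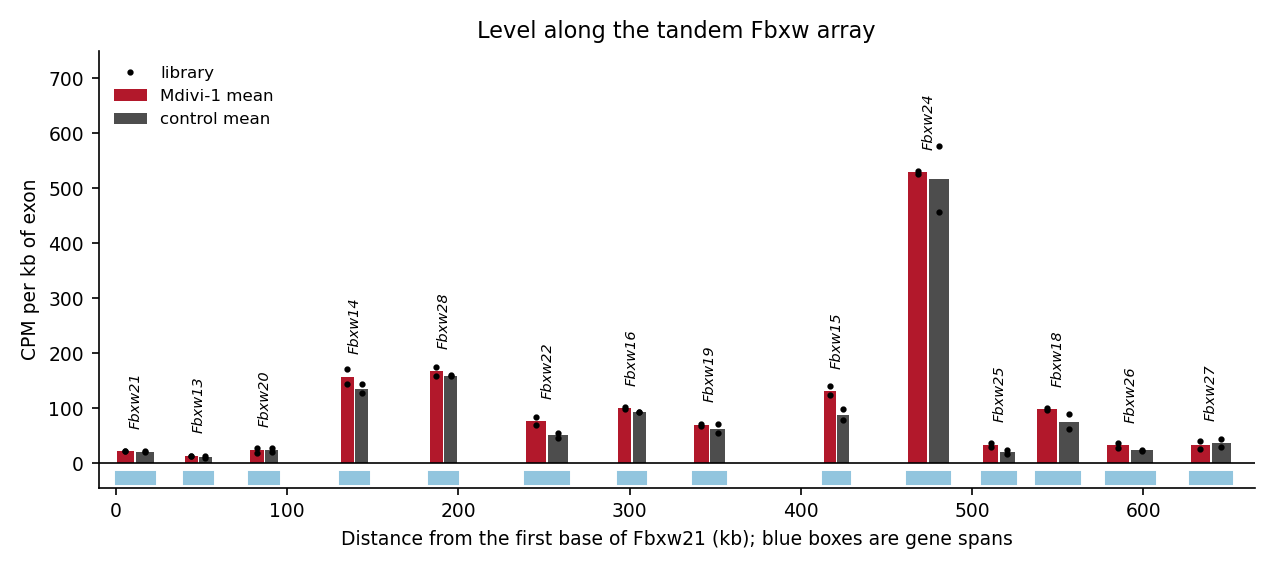
Mean level per kilobase of exon (bars) and each library (points) of the array genes, against the distance in kb from the lower end of *Fbxw21*, with Mdivi-1 (red) left of control (grey). The blue boxes are the spans of the genes. The highest bars belong to *Fbxw24* and those on their right to its neighbour *Fbxw25*, at 529 and 32.9 RPKM in Mdivi-1 embryos and 516 and 20.9 RPKM in controls.

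No gene of *Fbxw13* to *Fbxw28* had an unadjusted p under 0.05 in edgeR's quasi-likelihood test, and DESeq2, limma-voom and edgeR's likelihood ratio test called none after adjustment. Their smallest edgeR adjusted p was 0.375. The log2 fold changes of the 15 genes were positive for 13 and negative for 2 (51.3% of all genes were positive), with a median of 0.21 against 0.03 over all genes tested. The median moved with the scaling and stayed positive. With library totals in place of TMM, the median of all genes was 0.14, 0.11 higher, and that of the 15 genes was 0.34, with 15 positive and 2 at an unadjusted p under 0.05. Leaving out control replicate 1 gave a median of 0.11, and leaving out control replicate 2 gave 0.31. Both Mdivi-1 libraries were above both controls for 7 of the 15 genes and below for 0, against 26.1% and 23.9% of all genes. None of the 14 array genes differed 2-fold, whereas 34.2% of all genes had a log2 fold change of more than 1 in either direction. Of the 7096 genes of at least 10 CPM on average, which include all 14 array genes, 1581 differed by this much.

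The genes with the largest differences were not the 3 highest of the array. *Fbxw25* had 55.5 and 42.5 CPM in Mdivi-1 embryos and 25.3 and 36.9 CPM in controls (log2 fold change 0.66 ± 0.37, edgeR adjusted p = 0.432). *Fbxw22* had 155 and 126 CPM in Mdivi-1 embryos and 84.9 and 100.4 CPM in controls (0.60 ± 0.30, edgeR adjusted p = 0.375). *Fbxw15*, described in the mouse oocyte, had 209 and 184 CPM in Mdivi-1 embryos and 116 and 148 CPM in controls (0.57 ± 0.29, edgeR adjusted p = 0.388). In all 3 the Mdivi-1 libraries were above the controls without overlap. The same order of libraries was seen for *Fbxw26*, with 66.4 and 50.7 CPM in Mdivi-1 embryos and 40.4 and 43.5 CPM in controls, and for *Fbxw18*, with 152 and 147 CPM in Mdivi-1 embryos and 95.2 and 134 CPM in controls. *Fbxw16* had 183 and 176 CPM in Mdivi-1 embryos and 168 and 167 CPM in controls, again without overlap, but with a log2 fold change of 0.10 ± 0.28.

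The other array genes overlapped between the groups. *Fbxw27* had 46.5 and 75.2 CPM in Mdivi-1 embryos and 54.6 and 80.2 CPM in controls, and its log2 fold change of -0.15 ± 0.37 was the lowest of the array. *Fbxw20* had 46.7 and 66.1 CPM in Mdivi-1 embryos and 65.5 and 50.2 CPM in controls (-0.04 ± 0.34). In both genes the libraries of one group were further apart than the group means, and with scaling by library totals, which moved the median of all genes by 0.11, their log2 fold changes were 0.0031 and 0.05. *Fbxw19*, with 235 and 248 CPM in Mdivi-1 embryos and 191 and 247 CPM in controls, and *Fbxw21*, with 52.9 and 52.0 CPM in Mdivi-1 embryos and 50.2 and 52.0 CPM in controls, had log2 fold changes of 0.14 ± 0.29 and 0.04 ± 0.31. *Fbxw17*, the gene outside the array, was near the limit of the counts, with 32 and 12 counts in the Mdivi-1 libraries and 0 and 16 in the controls, and its log2 fold change of 1.16 ± 2.23 has an error larger than itself.

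The replicate libraries were closer together over the array than over sets of other genes that were not matched to it on level. The median absolute log2 ratio between the 2 libraries of a group was 0.16 in Mdivi-1 embryos and 0.33 in controls for the 14 array genes. It was 0.35 in Mdivi-1 embryos and 0.48 in controls over the 7096 genes of at least 10 CPM on average. For the 31 other F-box genes of that level it was 0.40 in Mdivi-1 embryos and 0.38 in controls, the latter close to the array's 0.33. The array's median CPM was above that of both sets in every library. Whether its replicates are closer than those of genes of like level was not tested. The raw counts behind the array's values were 293 to 15160 in a library. The share of the array's CPM that came from *Fbxw24* was 28.9% and 30.5% in Mdivi-1 embryos and 31.4% and 33.6% in controls. Summed over the 15 genes, the level was 2709 and 2592 CPM in Mdivi-1 embryos and 2167 and 2551 CPM in controls. The Mdivi-1 libraries were both above the controls, the nearest pair by less than the controls were apart, and with 2 libraries a group an exact permutation test cannot give a p below 0.333.

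Genes flanking the array were also measured. Within 150 kb of it the table held 14 genes, of which 8 were tested, and 0 were higher and 3 lower in Mdivi-1 embryos at an unadjusted p under 0.05, against 8.27% and 7.64% of all genes. The log2 fold changes of the other 5 ran from -0.88 (*Plxnb1*) to 0.65 (*Shisa5*). The 3 that were lower were named after their values were seen. *Tma7*, which encodes a translation machinery-associated protein, had 236 and 197 CPM in Mdivi-1 embryos and 449 and 480.4 CPM in controls (log2 fold change -1.10 ± 0.29, edgeR adjusted p = 0.182, DESeq2 adjusted p = 0.00764). *Nme6*, of the nucleoside diphosphate kinase family, had 34.6 and 37.8 CPM in Mdivi-1 embryos and 70.3 and 71.6 CPM in controls (-0.97 ± 0.31). *Cdc25a*, the phosphatase that activates cyclin-dependent kinases and is itself a target of SCF ligases, had 12.5 and 8.70 CPM in Mdivi-1 embryos and 24.3 and 28.4 CPM in controls (-1.31 ± 0.45). The Mdivi-1 libraries of all 3 were below the controls without overlap, and whether the array differs from its flanks was not tested.

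Several of the array's genes are known from the oocyte, and the marker genes of the egg and of the 2C stage were measured beside the array. All 12 oocyte and maternal markers were tested, of which 9 were positive and 3 negative (median log2 fold change 0.59), and their summed level was 3644 and 4665 CPM in Mdivi-1 embryos and 1624 and 3254 CPM in controls. Most of that sum came from *Oosp1*. It had 2401 and 3198 CPM in Mdivi-1 embryos and 956 and 2368 CPM in controls, with an edgeR adjusted p of 0.49. DESeq2 called 2 of the 12 markers higher and 0 lower, against 3.28% and 2.81% of all genes. At an unadjusted p under 0.05 in edgeR's quasi-likelihood test, 3 were higher and 1, *Zp3*, was lower, against 8.27% and 7.64% of all genes. Of 7 late 2C markers, all 7 were positive (median 1.37), and 4 were called higher by DESeq2, against 3.28% of all genes. The sum of these 7 was 1987 and 2412 CPM in Mdivi-1 embryos and 738 and 1284 CPM in controls. The study had already reported 2C genes such as *Zfp352* and *Zscan4d*, both on this list, as upregulated in these Mdivi-1 embryos. The direction of the late 2C markers was thus known in advance and is not an independent result. *Zp3*, the gene of a zona pellucida protein, had 149 and 99.2 CPM in Mdivi-1 embryos and 198 and 269.5 CPM in controls, whereas *Bmp15*, of an oocyte growth factor, had 662 and 975 CPM in Mdivi-1 embryos and 184 and 273 CPM in controls. Cumulus and granulosa markers summed to 22.0 and 22.7 CPM in Mdivi-1 embryos and 7.78 and 16.9 CPM in controls over 12 genes, of which 4 were tested (3 positive, median 1.31) and *Amh*, *Inha*, *Has2* and *Ptx3* were at 0 in every library. Sperm markers summed to 6.07 and 2.61 CPM in Mdivi-1 embryos and 1.91 and 0 CPM in controls over 3 genes, with 1 tested. Markers of the 4-cell and later stages summed to 42.0 and 34.3 CPM in Mdivi-1 embryos and 47.2 and 39.1 CPM in controls over 8 genes, with 5 tested (2 positive, median -0.22). The part of these markers' sources in the F-box results was not tested.

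**Figure D3:**
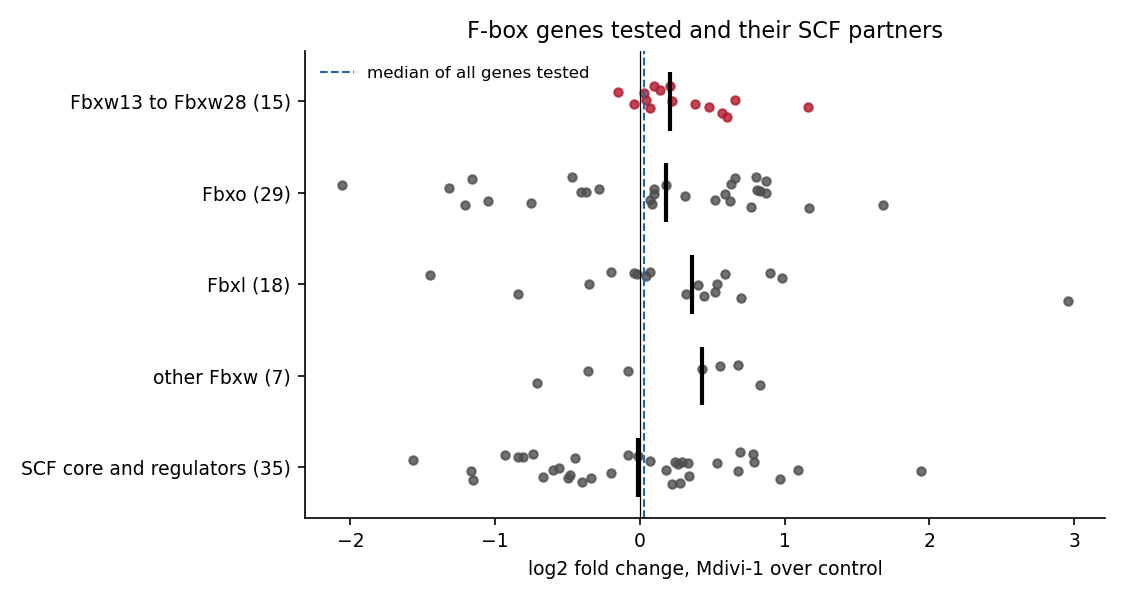
Log2 fold change of Mdivi-1 over control embryos for each tested F-box gene (points, by class) and for the tested genes of the SCF core and its regulators, with the median of each row as a black bar and the median of all 14259 genes (0.03) as a dashed line. The 15 genes *Fbxw13* to *Fbxw28* (red, -0.15 to 1.16) sit within a narrower range than the *Fbxo* (-2.06 to 1.68) and *Fbxl* genes (-1.45 to 2.96). The 7 other *Fbxw* genes have a similarly narrow range (-0.71 to 0.83). Over the 31 F-box genes outside *Fbxw13* to *Fbxw28* of at least 10 CPM on average the range is -1.32 to 1.17.

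The 54 other F-box genes that were tested spread more widely. Their log2 fold changes ran from -2.06 to 2.96 with a median of 0.31, and were positive for 35 and negative for 19 (51.3% of all genes were positive). At an unadjusted p under 0.05 were 8 of them (14.8%, against 15.9% of all genes), 4 in each direction. Both Mdivi-1 libraries were above both controls for 15 and below for 9, against 26.1% and 23.9% of all genes. By class, 19 of 29 *Fbxo*, 12 of 18 *Fbxl* and 4 of 7 other *Fbxw* genes were positive, with medians of 0.18, 0.36 and 0.43. Over the 31 of at least 10 CPM the log2 fold changes ran from -1.32 to 1.17 with a median of 0.10. Over all 7096 genes of that level the median was -0.08. Without control replicate 1 the median of all the other F-box genes tested was 0.65, and that of all genes 0.21. Without control replicate 2 it was 0.18, and without Mdivi-1 replicate 1 it was 0.15.

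The F-box gene with the largest difference in CPM between the groups was *Fbxo15*. It is known as a gene of embryonic stem cells under OCT4 and SOX2, and it is on the study's own list of 2C genes. *Fbxo15* had 369 and 577 CPM in Mdivi-1 embryos and 861 and 1334 CPM in controls, with the Mdivi-1 libraries below the controls. Its log2 fold change was -1.21 ± 0.38, with an adjusted p of 0.215 in edgeR's quasi-likelihood test and of 0.013 in DESeq2. It was the second F-box gene of the controls per kilobase (327 RPKM) and the fourth of the Mdivi-1 embryos (141 RPKM). The DESeq2 call held in 2 of 4 fits that left out 1 library, with an adjusted p of 9.94e-05 without control replicate 1, 0.0437 without Mdivi-1 replicate 2, 0.502 without Mdivi-1 replicate 1 and 0.0768 without control replicate 2. In every fit without 1 library the lone library of its group is assumed to vary like the other group. The summed level of the late 2C markers stood above the controls in both Mdivi-1 libraries. DESeq2 called 4 of these 7 markers higher, against 3.28% of all genes. For these markers that direction was known from the study's own report on these embryos.

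The other gene that DESeq2 called was *Fbxo45*. Its protein is a receptor that works with the RING ligase PAM rather than with CUL1, and is best known from neurons. *Fbxo45* had 62.4 and 47.8 CPM in Mdivi-1 embryos and 121 and 125 CPM in controls, without overlap. The log2 fold change was -1.16 ± 0.30 (edgeR adjusted p = 0.178, DESeq2 adjusted p = 0.0245). The DESeq2 call held in 1 of 4 fits without 1 library, that without control replicate 1 (adjusted p = 0.0348), and was lost without control replicate 2 (0.0666), Mdivi-1 replicate 1 (0.236) or Mdivi-1 replicate 2 (0.412).

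A further 2 F-box genes were lower at an unadjusted p under 0.05 in edgeR's quasi-likelihood test, with no call by DESeq2. *Fbxo9*, whose protein targets subunits of the TEL2 complex that steadies kinases of the mTOR family, had 24.5 and 16.8 CPM in Mdivi-1 embryos and 42.5 and 43.3 CPM in controls (log2 fold change -1.05 ± 0.38, edgeR adjusted p = 0.247). *Fbxo6*, of the receptors that bind sugar chains of misfolded glycoproteins, had 6.98 and 6.10 CPM in Mdivi-1 embryos and 20.5 and 12.2 CPM in controls (-1.32 ± 0.56, edgeR adjusted p = 0.301). Neither gene overlapped between the groups. Among the rest, *Fbxl20*, a receptor known from synapses, had 35.0 and 61.5 CPM in Mdivi-1 embryos and 94.5 and 77.9 CPM in controls (-0.84 ± 0.37). *Fbxo36* had 110.2 and 61.0 CPM in Mdivi-1 embryos and 117 and 121 CPM in controls (-0.47 ± 0.36). *Fbxo47*, known from mouse meiosis, had 66.8 and 93.0 CPM in Mdivi-1 embryos and 102 and 105 CPM in controls (-0.37 ± 0.31). The low *Fbxl18* had 1.07 and 2.14 CPM in Mdivi-1 embryos and 3.60 and 5.18 CPM in controls. These 4 did not pass the test, and in each the Mdivi-1 libraries were below the controls.

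The 4 F-box genes that were higher at an unadjusted p under 0.05 were *Fbxo8*, *Fbxl17*, *Fbxo5* and *Fbxo46*, and DESeq2 called none of them. *Fbxo8*, whose protein carries a Sec7 domain and acts on the small GTPase ARF6, had 198 and 228 CPM in Mdivi-1 embryos and 114 and 128 CPM in controls (log2 fold change 0.81 ± 0.29, edgeR adjusted p = 0.242). *Fbxl17*, the receptor that removes wrongly paired BTB domain proteins, had 90.9 and 81.6 CPM in Mdivi-1 embryos and 32.9 and 54.6 CPM in controls (0.98 ± 0.35, edgeR adjusted p = 0.248). *Fbxo46* had 55.0 and 34.5 CPM in Mdivi-1 embryos and 26.9 and 12.8 CPM in controls (1.17 ± 0.48, edgeR adjusted p = 0.288). Its exons overlap those of *Qpctl* on the other strand over 9.54% of their length, and these counts keep no strand. In each gene the Mdivi-1 libraries were above the controls without overlap.

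*Fbxo5* encodes EMI1, which inhibits the anaphase-promoting complex (APC/C) between mitoses, and *Fbxo43* encodes EMI2, which holds the egg at the second meiotic metaphase through the same complex. *Fbxo5* had 128 and 119 CPM in Mdivi-1 embryos and 76.0 and 69.4 CPM in controls (log2 fold change 0.77 ± 0.29, edgeR adjusted p = 0.259). *Fbxo43* had 19.4 and 25.2 CPM in Mdivi-1 embryos and 18.4 and 10.3 CPM in controls (0.63 ± 0.48, edgeR adjusted p = 0.588). Both genes were above the controls in both Mdivi-1 libraries, *Fbxo43* by less than the controls were apart. Further genes with this order of libraries were *Fbxo28*, with 25.9 and 34.2 CPM in Mdivi-1 embryos and 20.4 and 12.5 CPM in controls, *Fbxw4*, with 48.4 and 50 CPM in Mdivi-1 embryos and 36.5 and 25 CPM in controls, and *Fbxo30*, with 44.3 and 30.0 CPM in Mdivi-1 embryos and 23.5 and 23.4 CPM in controls. *Fbxw4* shares 21.4% of its exonic length with a gene model on the other strand.

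Low counts gave the largest fold changes. *Fbxl7*, a receptor for Aurora A and survivin, had 145 and 106 counts in the Mdivi-1 libraries and 34 and 2 in the controls, which is 7.78 and 5.52 CPM in Mdivi-1 embryos and 1.55 and 0.131 CPM in controls. Its log2 fold change of 2.96 ± 1.30 was the highest of the F-box genes (edgeR adjusted p = 0.321), and was 2.07 to 5.58 when 1 library was left out (edgeR adjusted p = 0.0478 at 5.58, without control replicate 1). *Fbxo40*, known from muscle, had 13.3 and 7.45 CPM in Mdivi-1 embryos and 1.09 and 5.38 CPM in controls (1.68 ± 0.92). *Fbxo31*, the lowest at -2.06 ± 1.68, had 16 and 29 counts in the Mdivi-1 libraries and 215 and 2 in the controls, so that 1 control library set the value.

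**Figure D4:**
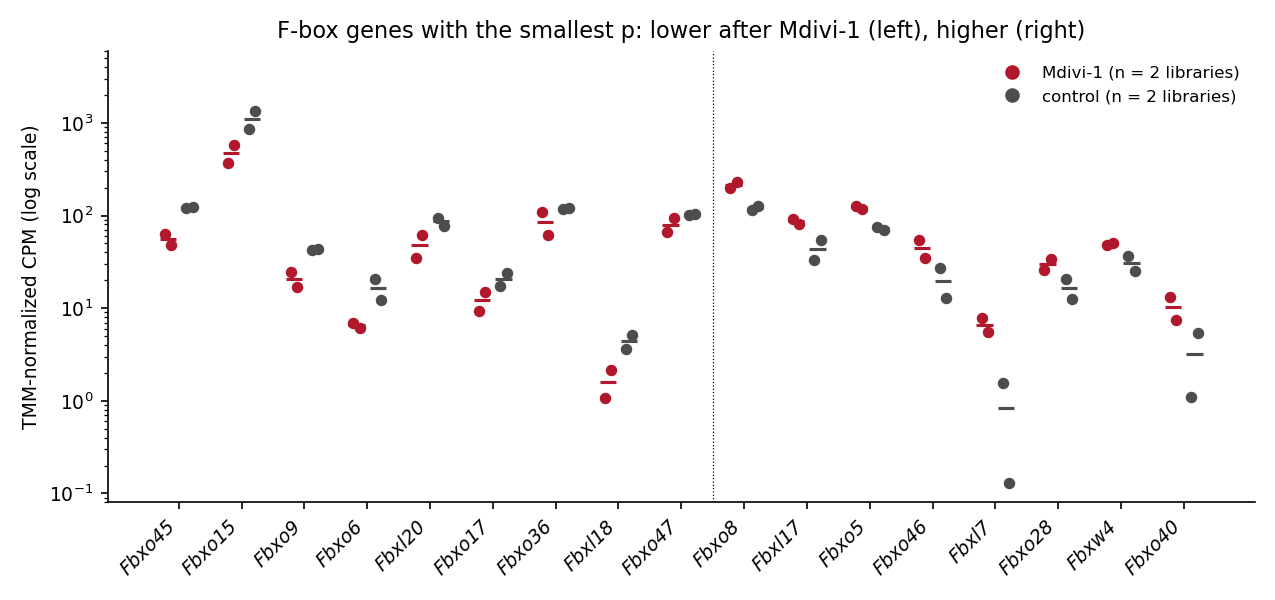
Level in each library, as TMM-normalized CPM on a log axis, of F-box genes outside *Fbxw13* to *Fbxw28*. Left of the dotted line are the 9 whose Mdivi-1 libraries both lie below the controls, and right of it the 8 with the smallest p of the 15 whose Mdivi-1 libraries both lie above them, in order of p within each side. Points are libraries and lines are group means, with Mdivi-1 (red) left of control (grey). *Fbxo15* is the most abundant, at 369 and 577 CPM in Mdivi-1 embryos and 861 and 1334 CPM in controls.

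Several abundant F-box genes showed no clear difference between the groups, and whether they are alike was not tested. *Fbxo11*, whose protein targets BCL6, had 438 and 528 CPM in Mdivi-1 embryos and 484 and 417 CPM in controls (log2 fold change 0.10 ± 0.30). *Fbxo33*, a receptor for the RNA-binding protein YB-1, had 329 and 286 CPM in Mdivi-1 embryos and 273 and 312 CPM in controls (0.07 ± 0.29). *Fbxo34*, described in mouse oocyte maturation, had 163 and 173 CPM in Mdivi-1 embryos and 133 and 185 CPM in controls (0.08 ± 0.30). In all 3 the groups overlapped, and the difference of the means was smaller than its standard error.

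F-box genes with a role at mitochondria were looked at because DRP1, the target of Mdivi-1, divides them. *Fbxl4* encodes a receptor of the outer mitochondrial membrane that keeps the mitophagy receptors BNIP3 and BNIP3L low, and had 18.1 and 20.3 CPM in Mdivi-1 embryos and 12.7 and 23.9 CPM in controls (log2 fold change 0.07 ± 0.47). *Fbxo7*, of the PINK1 and Parkin pathway of mitophagy, had 15.6 and 6.93 CPM in Mdivi-1 embryos and 4.91 and 7.41 CPM in controls (0.87 ± 0.68). Both overlapped between the groups. *Bnip3* itself had 72.6 and 105 CPM in Mdivi-1 embryos and 228 and 189 CPM in controls (-1.23 ± 0.32, DESeq2 adjusted p = 0.0115), a call that held in 2 of 4 fits without 1 library (adjusted p from 0.00687 to 0.466).

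Receptors of the cell cycle and of other known targets did not pass the test. *Fbxw7*, the receptor for cyclin E and MYC, had 13.8 and 23.3 CPM in Mdivi-1 embryos and 16.2 and 4.53 CPM in controls (log2 fold change 0.83 ± 0.68, and 2.03 without control replicate 1 or 0.17 without control replicate 2). *Fbxw11*, one of the βTrCP receptors, had 23.7 and 42.3 CPM in Mdivi-1 embryos and 43.5 and 26.4 CPM in controls (-0.08 ± 0.44). *Fbxl5*, the iron sensor that targets IRP2, had 86.8 and 61.4 CPM in Mdivi-1 embryos and 63.6 and 48.8 CPM in controls (0.40 ± 0.34). All 3 overlapped between the groups. *Fbxl21* had a log2 fold change of 0.70 ± 1.11, and *Fbxo38* and *Fbxo42* of -0.41 ± 0.58 and 0.10 ± 0.46. Of the sugar-binding receptors beside *Fbxo6*, *Fbxo17* had 9.34 and 15.1 CPM in Mdivi-1 embryos and 17.3 and 23.8 CPM in controls (-0.75 ± 0.49), and *Fbxo2* had 2 counts in 1 Mdivi-1 library and 0 in the other 3. *Fbxo27*, *Fbxo44* and the muscle gene *Fbxo32* had at most 89 counts in a library and standard errors of 1.67 to 2.29. *Fbxo4* had 51 counts in 1 Mdivi-1 library and 0 in the rest.

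The core of the SCF complex did not move in one direction. Of 36 genes of the SCF core and its regulators in the table, 35 were tested, with positive log2 fold changes for 17 and negative ones for 18 (median -0.01), and 8 were at an unadjusted p under 0.05, 4 in each direction (22.9%, against 15.9% of all genes). The number was 4 and 3 without Mdivi-1 replicate 1 or 2, and 13 without control replicate 2. DESeq2 called 3 higher and 2 lower, against 3.28% and 2.81% of all genes. *Skp1* had 979 and 1087 CPM in Mdivi-1 embryos and 593 and 689 CPM in controls (log2 fold change 0.69 ± 0.31, edgeR adjusted p = 0.326). *Cul1* had 958 and 1112 CPM in Mdivi-1 embryos and 589 and 465 CPM in controls (0.97 ± 0.32, edgeR adjusted p = 0.219, DESeq2 adjusted p = 0.0251). *Rbx1* had 938 and 726 CPM in Mdivi-1 embryos and 766 and 1683 CPM in controls (-0.56 ± 0.43, edgeR adjusted p = 0.592). *Skp1* and *Cul1* were above the controls in both Mdivi-1 libraries, and *Rbx1* overlapped.

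CUL1 works only when the small modifier NEDD8 is joined to it, a cycle that the COP9 signalosome reverses. *Senp8*, which matures NEDD8 and strips it from other proteins, had 41.7 and 45.8 CPM in Mdivi-1 embryos and 6.78 and 16 CPM in controls (log2 fold change 1.94 ± 0.50, edgeR adjusted p = 0.173, DESeq2 adjusted p = 0.0149). *Cops6*, a subunit of the signalosome, had 93.8 and 99.2 CPM in Mdivi-1 embryos and 173 and 260.3 CPM in controls (-1.17 ± 0.32, DESeq2 adjusted p = 0.0181). Of the ubiquitin-conjugating enzymes, *Ube2g1* had 163 and 241 CPM in Mdivi-1 embryos and 93.7 and 95.6 CPM in controls (1.09 ± 0.32, DESeq2 adjusted p = 0.034). *Ube2l3*, the partner of RBR ligases such as ARIH1, had 278 and 223 CPM in Mdivi-1 embryos and 568 and 914 CPM in controls (-1.57 ± 0.35, edgeR adjusted p = 0.153, DESeq2 adjusted p = 0.00029). None of these 4 overlapped between the groups. The DESeq2 calls held in 3 of 4 fits without 1 library for *Ube2l3*, in 2 for *Ube2g1*, and in 1 each for *Cul1*, *Senp8* and *Cops6*, with adjusted p up to 0.0899, 0.575, 0.42, 0.304 and 0.396.

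**Figure D5:**
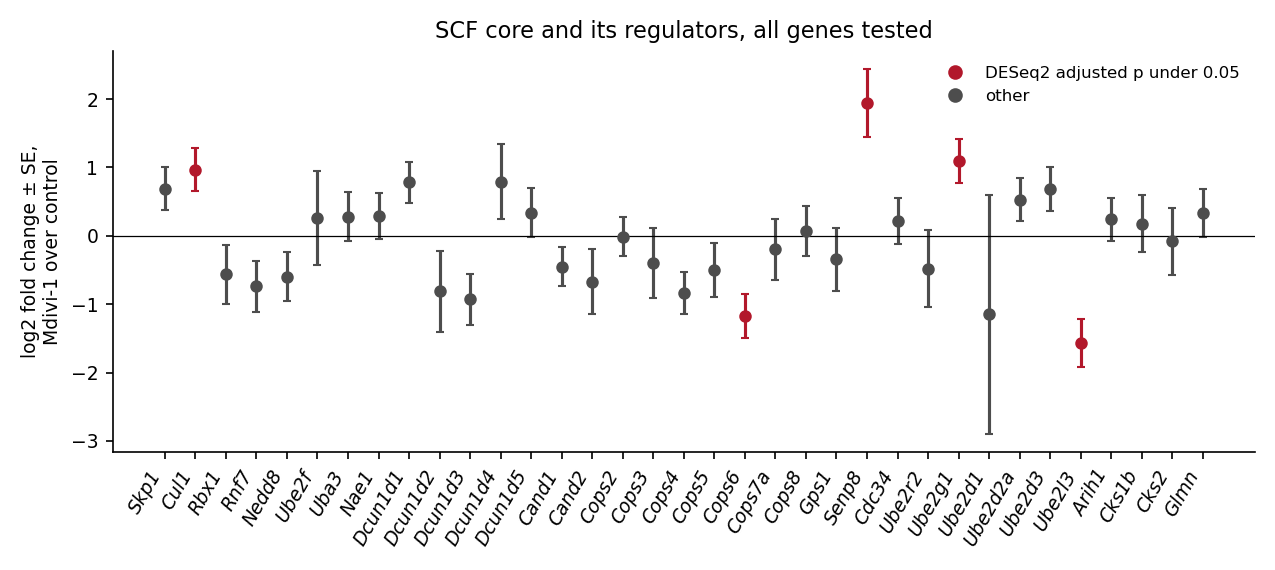
Log2 fold change of Mdivi-1 over control embryos with its standard error for the 35 tested genes of the SCF core and its regulators, from the scaffold on the left to the E2 enzymes and CKS proteins on the right. Red points have a DESeq2 adjusted p under 0.05, and lie on both sides of 0, from -1.57 (*Ube2l3*) to 1.94 (*Senp8*).

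F-box proteins whose names do not follow the pattern were counted apart. All 7 (*Skp2*, *Btrc*, *Ccnf*, *Kdm2a*, *Kdm2b*, *Ect2l* and *Fbh1*) were tested, 2 positive and 5 negative (median -0.35), and 0 had an unadjusted p under 0.05 in edgeR's quasi-likelihood test or a call by DESeq2. *Skp2*, the receptor for p27, had 31.1 and 32.7 CPM in Mdivi-1 embryos and 44.3 and 36.9 CPM in controls. *Btrc*, the other βTrCP gene, had 31.7 and 22.3 CPM in Mdivi-1 embryos and 35.7 and 35.1 CPM in controls. In both the Mdivi-1 libraries were below the controls. Of the 7 other cullins, which serve other families of receptors, 6 were tested, 1 positive and 5 negative (median -0.59), with 2 lower at an unadjusted p under 0.05, against 7.64% of all genes (*Cul2* and *Cul5*, log2 fold changes of -1.22 ± 0.38 and -0.84 ± 0.29) and 0 called by DESeq2.

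Among 20 known substrates or targets of F-box receptors, 18 were tested, 5 positive and 13 negative (median -0.40). At an unadjusted p under 0.05 were 3 (16.7%, against 15.9% of all genes), 1 higher and 2 lower. The higher one was *Wee2*, the oocyte kinase that inhibits CDK1, with 374 and 406 CPM in Mdivi-1 embryos and 152 and 98.4 CPM in controls (log2 fold change 1.64 ± 0.33, edgeR adjusted p = 0.146, DESeq2 adjusted p = 0.000153). It was above the controls in both Mdivi-1 libraries, and the DESeq2 call held in 2 of 4 fits without 1 library (adjusted p up to 0.0682). The lower ones were *Bnip3* and *Cdc25a*, given above. RNA levels say nothing of the amounts of these proteins, which F-box receptors set by degradation.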

How the data were processed

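RNA of late 2C embryos was measured in 2 Mdivi-1 and 2 control libraries, grouped by their titles. The dose and the culture time are from the study's methods. Per the methods and the submitters' processing notes, the authors used cutadapt 1.16 for trimming and STAR for mapping to mm10, and their raw count per gene is of uniquely mapped reads in exons. The deposited table also holds a signal per library (the count divided by a size factor), and the authors' own comparison: a log2 fold change with its error, a Wald score and p-values, none of which was used.

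Counts were tested with edgeR 4.0.16 (R 4.3.3), on genes past filterByExpr at its minimum count of 10, with TMM scaling, the two-sided quasi-likelihood test and Benjamini-Hochberg adjustment over all 14259 genes. Standard errors were worked back from this test. TMM factors were 1.05 and 1.04 for Mdivi-1 and 1.1 and 0.834 for control libraries, with a biological coefficient of variation of 0.66. The fit was also run on simulated data, with an outcome that is not given here. DESeq2 1.42.0, limma-voom (limma 3.58.1) and edgeR's likelihood ratio test, other scalings and filters, a replicate block and leaving out each library were alternatives. No library was a copy of another, with a chi-square of 47.4 (Mdivi-1) and 102 (control) per degree of freedom between replicates. An adjusted p that DESeq2 left missing stayed missing.

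Positions, exon lengths, overlaps and 150-base windows are from GENCODE M21 (25995 of 26022 genes matched by Ensembl ID), and not from the table. Identities are from global alignments (Biopython 1.88). The members and the gene lists were chosen with earlier results of these data known. Named genes were all of *Fbxw13* to *Fbxw28*, those DESeq2 called, up to 10 in each direction with the smallest p and no overlap of groups, members with known roles, and the 5 highest of each group per kilobase. *Fbxo33*, some of the other members named and the flanking genes were added after their values were seen. One member that the rule would name is not reported here.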

Additional observations from a re-analysis of the deposited data

How the results depend on the processing

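The counting error of reads is small for the array (at least 293 counts) and large for genes of low counts. It does not include the variation from amplifying the RNA of few embryos. Whether a gene passed the adjusted threshold of edgeR's quasi-likelihood test depended on the filter and, as given above, on single libraries. With the filter 0 of all genes passed, and without it 819 (2 F-box and 3 SCF genes). Of 754 values of 60 genes under the alternatives, 673 kept direction and side of the threshold, 53 (11 genes) passed it and 28 (15 genes) reversed. None could be lost, since no gene passed it in the test with all libraries and the filter. The 754 include refits of DESeq2 without 1 library, which were made only for genes that DESeq2 had called. Leaving out 1 library gave 2 to 10 F-box genes at an unadjusted p under 0.05 (8 with all libraries), 1208 to 3111 of all genes (2268) and 3 to 13 SCF genes (8), the lowest without Mdivi-1 replicate 1 or 2, and medians of 0.15 to 0.65 for F-box genes outside *Fbxw13* to *Fbxw28* (0.31). limma-voom called 202 and the likelihood ratio test 870 of all genes after adjustment, with 0 and 2 F-box genes among them. No label pairs the same-numbered replicates of the groups. The correlation of their deviations was 0.00783, which cannot exclude a shared litter or culture. The replicate block gave 8 F-box genes, 6 SCF genes and 2041 of all genes at an unadjusted p under 0.05, and medians of 0.21 for *Fbxw13* to *Fbxw28* and 0.28 for the other F-box genes. *Fbxo27* (0.52) and *Fbxo44* (-0.28) were -1.97 and 0.85 with limma-voom and -1.34 and 1.25 with the block. With library totals *Fbxw20* was 0.05 and *Fbxw27* 0.0031. Leaving out 1 library gave log2 ranges across 0 for *Fbxl4* (-0.33 to 0.57), *Fbxo11* (-0.06 to 0.22), *Fbxo27* (-7.97 to 2.57), *Fbxo31* (-3.06 to 3.10), *Fbxo32* (-0.66 to 1.53), *Fbxo34* (-0.15 to 0.31), *Fbxo42* (-0.34 to 0.67), *Fbxo44* (-1.29 to 6.02), *Fbxw11* (-0.58 to 0.31), *Fbxw19* (-0.04 to 0.31), *Fbxw20* (-0.33 to 0.19), *Fbxw24* (-0.13 to 0.19), *Fbxw27* (-0.56 to 0.15), *Fbxw28* (-0.0043 to 0.12) and *Rbx1* (-1.02 to 0.09). The cause was not tested. Protein identity was not run. Chosen after the data were seen, leaving out *Fbxw14* and *Fbxw28*, whose windows are not all unique, gave a median of 0.22 for the other 13, and DESeq2 was refitted without each library.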
